A study of Mus musculus with 4 samples.

Results

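Cytosolic nucleic acid sensors are proteins that bind viral or misplaced RNA and DNA inside the cell. The RIG-I-like receptors bind double-stranded RNA and pass the signal to MAVS on mitochondria, while cytosolic DNA is reported through STING on the endoplasmic reticulum. Both adaptors recruit the kinases TBK1 and IKKε, which phosphorylate the transcription factors IRF3 and IRF7 and so switch on type I interferon, and interferon in turn raises the transcription of many of the sensors. In dendritic cells the same kinases also act below TLR4, the receptor of lipopolysaccharide (LPS). The set comprised 10 genes, chosen by name. Each was read from the probe set that carried its symbol and no other, and by the highest mean where several did. Of these 10 genes, 9 had such a probe set, among 22180 genes in all, and all 9 passed the filter on dim probe sets, which left 14652 genes to test. Tmem173, which encodes STING, was found under its current symbol Sting1. Trex1, a DNA exonuclease that clears cytosolic DNA, was covered by 1 probe set that it shared with Atrip, and is not analysed here.

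The samples were dendritic cells grown from C57BL/6 mouse bone marrow, as whole cultures for which no sort is given, and taken on day 7. The 2 sulforaphane arrays came from cells kept for 2 h with 0.3 µM sulforaphane, a plant isothiocyanate known as an activator of NRF2, in DMSO. The 2 DMSO arrays came from cells kept in DMSO alone. All 4 samples were then given 100 ng/ml E. coli LPS for 1 h, so that no comparison here shows the response to LPS itself. Nothing in the labels ties a replicate to a mouse or culture of its own. The p-values are therefore measured against a spread between arrays that may be technical. All values are RMA expression values on the log2 scale, where a difference of 1 is a doubling of signal.

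The arrays' medians over all probe sets lay between 3.24 and 3.27. Over the genes tested, they ran from 6.22 on DMSO replicate 1 to 6.37 on sulforaphane replicate 2. The values of DMSO replicate 1 were the most compressed (interquartile range 3.41, elsewhere 3.61 or 3.62). Over all genes, 9 were higher and 10 lower after sulforaphane at an adjusted p below 0.05 by limma, with 41 higher and 102 lower after median centring and 30 higher and 63 lower after a second quantile normalization. The dendritic cell marker Itgax was high on every array (11.33 after sulforaphane and 11.26 after DMSO on average), and Cd3e of T cells was no brighter than the typical probe set (2.93 and 3.15). Markers of other myeloid cells ranged widely in level. Some were dim, such as Ly6c1 of monocytes (2.64 after sulforaphane and 3.33 after DMSO on average) and Fcer1a of mast cells (3.63 and 3.68). Others were far above the arrays' medians, at 11.21 and 11.25 for Csf1r of macrophages and 10.97 and 10.73 for S100a8 of neutrophils. Cpa3 of mast cells was bright too, at 9.99 and 9.97. The cultures are therefore not taken as pure dendritic cells here. In these bulk cultures, fewer cells of a type and less RNA per cell cannot be told apart.

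Transcripts of the sensors were mostly lower after sulforaphane, while Mavs and Tbk1 differed by little. In 7 of the 9 genes both sulforaphane arrays lay below both DMSO arrays, an order seen in 19.5% of all genes tested, with the opposite order in 24.0%. In 3 of the 9, Ikbke, Ifih1 and Ddx58, the difference was also at least 1.5-fold. This size together with no overlap was seen downwards in 1.49% of all genes and upwards in 1.32%. No gene of the set passed the adjusted threshold over all genes, which 0.0683% of genes passed as lower and 0.0614% as higher. Ddx58, Ifih1 and Ikbke did pass it under 3 alternatives, with adjusted p between 0.0097 and 0.0478 by limma. These were an intensity trend, arrays centred on their medians, and the filter raised to the 60th percentile. Far more genes passed in those fits too, at 249 of 14652, 143 of 14652 and 138 of 10584 respectively. In the main fit 19 of 14652 passed. None of the 9 passed with an array left out. At an unadjusted limma p below 0.05, 7 of the 9 were lower, against 5.87% of all genes, and 0 were higher, against 7.09%. The median difference of the 9 genes was -0.40, beside 0.02 over all genes tested. The set was put together with earlier results of these data known, so these shares are descriptions and not tests of the set.

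**Figure D1:**
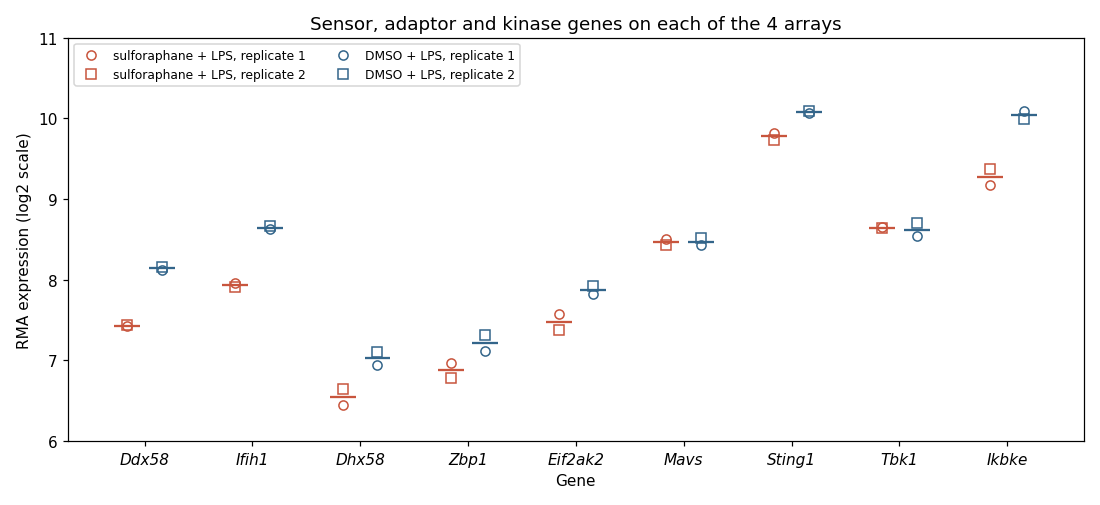
RMA expression (log2 scale, vertical axis) of the 9 genes on each array. Circles and squares are replicates 1 and 2, horizontal strokes are group means, and sulforaphane (red) stands left of DMSO (blue). The replicates of Ddx58 and Ifih1 nearly coincide and the groups lie far apart, whereas those of Mavs and Tbk1 overlap.

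The RIG-I-like receptors were lower together. Ddx58 encodes RIG-I, which binds short double-stranded RNA with a triphosphate end. It measured 7.42 and 7.44 on the sulforaphane arrays, against 8.12 and 8.16 on the DMSO arrays. The replicates lay within 0.015 of each other after sulforaphane and within 0.045 after DMSO, while 0.68 separated the nearest arrays of the groups. The difference was -0.71 ± 0.11 (SE, n = 2 per group; 95% interval -0.97 to -0.45), 1.64-fold lower, with an adjusted p of 0.0745 by limma. It ranked as number 135 among the 14652 genes from the lowest difference upwards.

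Ifih1 encodes MDA5, which binds long double-stranded RNA. It measured 7.95 and 7.91 on the sulforaphane arrays, against 8.62 and 8.66 on the DMSO arrays. The nearest arrays of the groups were 0.67 apart, and replicates of a group no more than 0.044. The difference of -0.71 ± 0.11 (SE; 95% interval -0.97 to -0.45), 1.64-fold lower, nearly equalled that of Ddx58 and had the same adjusted p of 0.0745 by limma.

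Dhx58 encodes LGP2, a helicase of the same family that lacks the signalling domains of the other members and tunes their activity. It measured 6.45 and 6.64 on the sulforaphane arrays, against 6.94 and 7.10 on the DMSO arrays. All values after sulforaphane were again below those after DMSO, with 0.30 between the nearest arrays and up to 0.19 between replicates. The difference was -0.48 ± 0.13 (SE; 95% interval -0.79 to -0.17), with an adjusted p of 0.212 by limma.

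Promoter windows are shown for the 3 genes, of those searched, that hold a match to an interferon-responsive motif, all lower without overlap. That of Mavs, which differed little, is shown as well. RefSeq promoter windows of build GRCm38.p6, running from 250 bases before to 50 bases after the annotated start, were taken for 6 of the 9 genes. Dhx58, Zbp1 and Sting1 are not covered here. The 6 windows were searched on both strands for 3 motifs. The core of the interferon-stimulated response element (ISRE) was written as GAAA, 2 bases of any kind and GAAA. A form of the NF-kB site was written as GGG, 2 bases of any kind and TTTCC, and the core of the antioxidant response element that NRF2 binds as TGAC, 3 bases of any kind and GC. Capitals mark the matches, and in the sequences below these do not overlap. Ddx58 is read from chr4:40239776-40240075, Ifih1 from chr2:62646206-62646505 and Eif2ak2 from chr17:78882523-78882822, all on the minus strand, and Mavs from chr2:131233813-131234112 on the plus strand.
Ddx58: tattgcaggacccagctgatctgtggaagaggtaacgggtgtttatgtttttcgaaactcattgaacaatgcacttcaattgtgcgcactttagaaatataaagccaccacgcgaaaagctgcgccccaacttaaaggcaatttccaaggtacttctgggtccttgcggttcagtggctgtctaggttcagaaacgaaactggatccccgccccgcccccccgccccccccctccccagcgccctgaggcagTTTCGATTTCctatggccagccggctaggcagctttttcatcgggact
Ifih1: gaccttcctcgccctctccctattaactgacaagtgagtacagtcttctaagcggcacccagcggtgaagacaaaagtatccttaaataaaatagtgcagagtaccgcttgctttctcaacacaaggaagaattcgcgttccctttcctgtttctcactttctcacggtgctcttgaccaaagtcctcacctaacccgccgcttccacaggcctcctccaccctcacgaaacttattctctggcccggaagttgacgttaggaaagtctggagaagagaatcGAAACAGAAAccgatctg
Eif2ak2: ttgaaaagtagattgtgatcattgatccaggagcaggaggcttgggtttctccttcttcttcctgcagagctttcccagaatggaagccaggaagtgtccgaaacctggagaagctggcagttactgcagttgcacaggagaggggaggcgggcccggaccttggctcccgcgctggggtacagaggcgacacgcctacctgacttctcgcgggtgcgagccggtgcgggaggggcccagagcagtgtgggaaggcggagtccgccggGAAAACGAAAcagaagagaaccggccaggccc
Mavs: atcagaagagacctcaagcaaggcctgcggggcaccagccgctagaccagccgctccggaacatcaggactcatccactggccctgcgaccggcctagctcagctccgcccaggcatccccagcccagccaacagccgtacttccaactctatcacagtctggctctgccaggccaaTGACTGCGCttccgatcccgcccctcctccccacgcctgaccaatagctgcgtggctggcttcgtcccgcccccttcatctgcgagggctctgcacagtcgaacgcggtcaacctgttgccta
The ISRE core stood once in the windows of Ddx58, Ifih1 and Eif2ak2, and in 3.44% of all 32851 windows. Counted from 1 at the annotated start, it covered bases 3 to 12 in Ddx58, on the strand opposite to the gene, 19 to 28 in Eif2ak2 and 33 to 42 in Ifih1. The window of Mavs held the antioxidant core once, and 12.4% of all windows held it. The NF-kB form, in 1.63% of all windows, was found in none of the 6, and those of Ikbke and Tbk1 held no match to any of the 3. A match is a description of these letters and not a bound site.

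Among tested genes with a RefSeq window, 411 had an ISRE core and 11082 had none. Lower by at least 1.5-fold without overlap were 19 genes with the core (4.62%) and 142 without it (1.28%). The 19 include Ddx58 and Ifih1 themselves, and the 142 include Ikbke. Lower without overlap, whatever the size, were 25.8% with the core and 19.2% without it. The median differences were close, at -0.01 with the core and 0.02 without it. An excess of genes lower without overlap was not particular to the ISRE core. For the NF-kB form, found in none of the 6 windows, 28.9% with it and 19.3% without it were lower without overlap. By at least 1.5-fold these were 1.67% and 1.40%. For the antioxidant core, 19.3% with it and 19.5% without it were lower without overlap. Any part of the ISRE core in the differences of Ddx58, Ifih1 and Eif2ak2 was not tested.

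The other sensors lay lower by smaller amounts. Eif2ak2 encodes PKR, a kinase that binds double-stranded RNA and blocks translation by phosphorylating eIF2α. It measured 7.57 and 7.38 on the sulforaphane arrays, against 7.82 and 7.92 on the DMSO arrays. The groups did not overlap, but the gap of 0.25 between them was little more than the 0.19 between the sulforaphane replicates. The difference was -0.40 ± 0.12 (SE; 95% interval -0.70 to -0.10), with an adjusted p of 0.261 by limma.

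Zbp1 encodes a sensor of Z-form nucleic acids that can start necroptosis through RIPK3. It measured 6.96 and 6.79 on the sulforaphane arrays, against 7.11 and 7.32 on the DMSO arrays. The nearest arrays of the groups were 0.15 apart, closer than the replicates of either group, which were 0.18 apart after sulforaphane and 0.20 after DMSO. The difference was -0.34 ± 0.13 (SE; 95% interval -0.66 to -0.02), with an adjusted p of 0.358 by limma.

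Of the adaptors, Sting1 was lower without overlap and Mavs was not. Mavs, the mitochondrial adaptor of the RIG-I-like receptors, measured 8.50 and 8.43 on the sulforaphane arrays, against 8.44 and 8.51 on the DMSO arrays. The groups overlapped, and the difference was -0.01 ± 0.11 (SE), with a 95% interval of -0.27 to 0.26.

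Sting1 (Tmem173) encodes STING, the adaptor that binds the cyclic dinucleotide made by the DNA sensor cGAS. It measured 9.82 and 9.74 on the sulforaphane arrays, against 10.06 and 10.10 on the DMSO arrays. The groups were 0.24 apart and the replicates at most 0.087. The difference was -0.30 ± 0.11 (SE; 95% interval -0.56 to -0.04), with an adjusted p of 0.332 by limma.

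Of the kinases below the adaptors, Ikbke was lower without overlap and Tbk1 was not. Ikbke encodes IKKε, an inducible relative of TBK1, and had the largest difference of the 9 genes. It measured 9.17 and 9.38 on the sulforaphane arrays, against 10.09 and 9.99 on the DMSO arrays. The groups were 0.62 apart, while replicates differed by 0.21 after sulforaphane and 0.095 after DMSO. The difference was -0.77 ± 0.12 (SE; 95% interval -1.07 to -0.47), 1.70-fold lower, with an adjusted p of 0.0861 by limma.

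Tbk1 encodes TBK1, the kinase that most cells hold at a steady level. It measured 8.65 and 8.64 on the sulforaphane arrays, against 8.54 and 8.70 on the DMSO arrays. Both sulforaphane values lay between the DMSO values. The difference was 0.03 ± 0.11 (SE), with a 95% interval of -0.26 to 0.31 that does not reach the value of Ikbke.

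**Figure D2:**
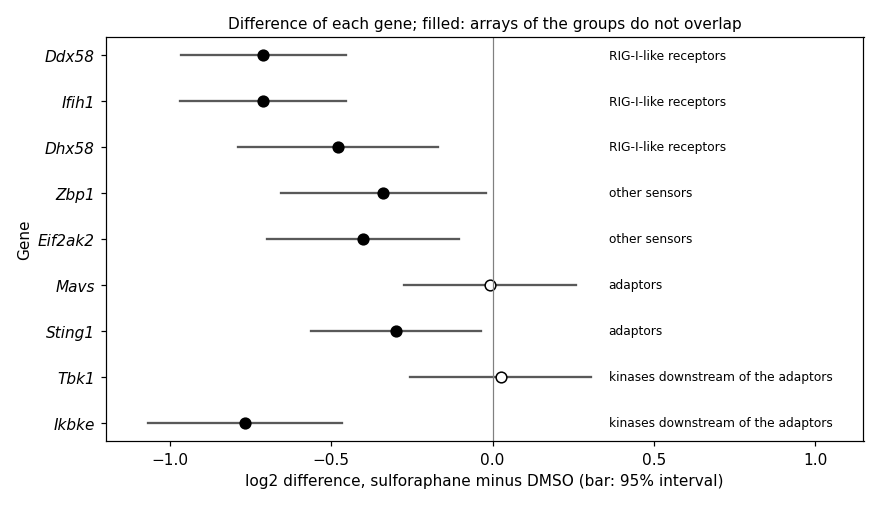
Difference of each gene (sulforaphane minus DMSO, log2 scale, horizontal axis) with its 95% interval from limma, n = 2 arrays per group. Filled points mark the 7 genes whose groups did not overlap; Mavs and Tbk1 (open) sit near 0. Each row is a gene, with its role at the right.

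The unequal difference within an array was set out for 3 pairs of genes, chosen after the values were seen. The log2 ratio of Ikbke to Tbk1 differed by -0.79 (sulforaphane minus DMSO). The ratio of Ddx58 to Mavs differed by -0.70 and that of Ifih1 to Mavs by -0.70. In each pair the 2 sulforaphane arrays lay below the 2 DMSO arrays, and the two-sided exact permutation p was 0.333 before and after adjustment over the 3 pairs, the smallest that 2 arrays against 2 can give. The unequal response is therefore a description at this number of arrays.

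Ddx58 and Ifih1 moved least among the 7 genes when single arrays were left out. Ddx58 ran from -0.73 to -0.69 and Ifih1 from -0.73 to -0.69 with any array left out, and Ikbke from -0.87 to -0.66. Dhx58 ran from -0.57 to -0.38, Eif2ak2 from -0.50 to -0.30, Zbp1 from -0.44 to -0.24 and Sting1 from -0.34 to -0.26. Without DMSO replicate 1, the most compressed array, the median of the 9 genes was -0.45. With each array left out in turn, 3 of the 9 genes were again at least 1.5-fold lower without overlap, beside 1.77% to 2.18% of all genes.

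**Figure D3:**
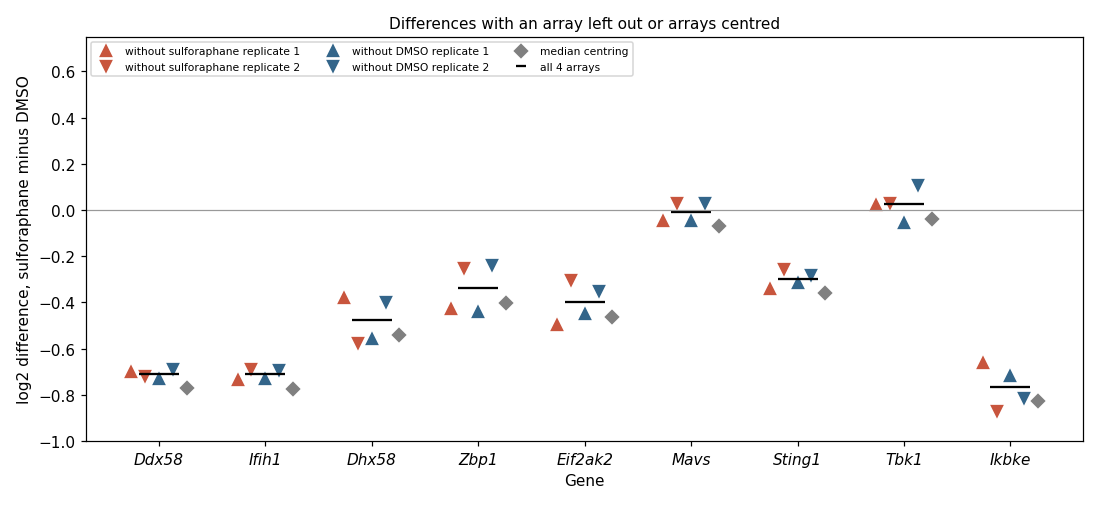
Difference of each gene (sulforaphane minus DMSO, log2 scale, vertical axis) with all 4 arrays (stroke), with each array left out (triangles) and after median centring (diamonds). Ddx58 and Ifih1 moved least with an array left out among the 7 genes that were lower without overlap, and Mavs and Tbk1 crossed 0.

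Profiles most like that of Ikbke over the 4 arrays, each centred on its own mean, were those of Il12a, BC051665, Zfp296 and 1110002J07Rik. Their root mean square distance from Ikbke was 0.022 to 0.042 on the log2 scale. Il12a, which encodes a subunit of IL-12, measured 3.17 and 3.42 on the sulforaphane arrays, against 4.10 and 4.05 on the DMSO arrays. With 4 arrays this likeness is a description.

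Other genes of the pathways were taken from lists drawn up by function. Of 27 tested partners in RIG-I-like receptor and MAVS signalling, 0 passed the adjusted threshold by limma, and at an unadjusted p below 0.05 there were 2 lower and 1 higher, beside 5.87% and 7.09% of all genes. The groups did not overlap in 11 that were lower and 5 that were higher, beside 19.5% and 24.0% of all genes, and the list's median was 0.00. Irf7, the interferon-inducible target of both kinases, measured 5.85 and 5.71 after sulforaphane against 6.33 and 6.31 after DMSO (-0.54 ± 0.11 SE). Tbkbp1, a scaffold protein that binds TBK1 and IKKε, measured 7.64 and 7.78 after sulforaphane against 8.34 and 8.16 after DMSO (-0.54 ± 0.12). Rnf135, the ubiquitin ligase Riplet that acts on RIG-I, went the other way, with 5.92 and 6.15 after sulforaphane against 5.11 and 5.51 after DMSO (0.73 ± 0.17). It thus stood above 0 while its substrate Ddx58 was below. Ddx60, an interferon-inducible helicase, differed by -0.30.

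In the DNA sensing list, 1 of 15 tested genes passed the adjusted threshold, beside 0.0683% of all genes as lower and 0.0614% as higher. Without overlap 4 were lower and 3 higher, beside 19.5% and 24.0% of all genes. Ifi205, of the interferon-inducible p200 family, fell to 6.50 and 6.23 after sulforaphane, against 7.70 and 7.90 after DMSO (-1.44 ± 0.14 SE, adjusted p = 0.0447 by limma). Ifi204, a relative proposed as a DNA sensor, measured 5.84 and 5.84 after sulforaphane against 6.10 and 6.40 after DMSO (-0.41). The members of that family are close in sequence, and signal shared between their probe sets was not tested. Trim56, a ubiquitin ligase linked to STING, and the nucleotidase Nt5c3 lay higher by 0.29 and 0.34 without overlap. Neither passed the adjusted threshold, and the median of the list was -0.04.

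The OAS enzymes make the short oligoadenylates that activate RNase L on sensing double-stranded RNA. Of 13 genes in the list of PKR partners and the OAS system 0 passed the adjusted threshold, and 5 were lower and 0 higher at an unadjusted limma p below 0.05, beside 5.87% and 7.09% of all genes. Oas2 measured 5.50 and 5.42 after sulforaphane, against 6.40 and 6.27 after DMSO (-0.87 ± 0.11 SE, adjusted p = 0.0581 by limma). Oasl2 differed by -0.60, Oas1g, one of several near-identical copies, by -0.78, and Oas3 by -0.38. All of these had groups that did not overlap. In the list 6 genes were lower and 5 higher without overlap, beside 19.5% and 24.0% of all genes.

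Partners of ZBP1 in necroptosis showed little. Of 6 tested genes 0 passed the adjusted threshold by limma, 1 was lower and 0 higher at an unadjusted p below 0.05, beside 5.87% and 7.09% of all genes, and the median was -0.01. That 1 gene was Cflar, an inhibitor of caspase-8, which averaged 8.62 after sulforaphane and 8.97 after DMSO, without overlap (-0.35 ± 0.11 SE). Ripk3, the kinase that Zbp1 recruits, differed by -0.04, with groups that overlapped. Fadd and Casp6 had overlapping groups as well, at 0.22 and 0.10.

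Genes of the interferon receptor pathway were more often lower than higher. Of 13 tested, 8 were lower and 2 higher without overlap, beside 19.5% and 24.0% of all genes. At an unadjusted limma p below 0.05, 5 were lower and 2 higher, beside 5.87% and 7.09%, and the median of the list was -0.21. Ifnb1, encoding interferon beta, was too dim to be tested, with 2.59 and 2.50 on the sulforaphane arrays and 2.56 and 2.66 on the DMSO arrays, below the filter at 2.91. So these arrays give no measure of that transcript at 1 h of LPS. The tested interferon genes went the other way from most of the list. Ifna1 was higher without overlap, at 0.32, and Ifna4 differed by 0.41 with groups that overlapped. The adjusted threshold was passed by 1 of the 13, beside 0.0683% of all genes as lower, namely Usp18, an interferon-induced protease that removes ISG15. It fell to 7.46 and 7.78 after sulforaphane, against 9.08 and 9.12 after DMSO (-1.48 ± 0.14 SE, adjusted p = 0.0431 by limma). Irf9, the DNA-binding part of the interferon-activated complex ISGF3, measured 7.46 and 7.50 after sulforaphane against 7.88 and 7.94 after DMSO (-0.42). Socs1, an inhibitor of the receptor's kinases, differed by -0.53. Stat2, another part of ISGF3, and the receptor chain Ifnar1 were lower without overlap too, at -0.43 and -0.32. Irf1, a transcription factor, lay higher, with 8.35 on both sulforaphane arrays against 7.85 and 7.90 on the DMSO arrays (0.47 ± 0.11).

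Early interferon-stimulated effectors had the lowest median of the lists, at -0.49. Of 15 tested genes, 13 were lower without overlap and 7 of them by at least 1.5-fold, beside 19.5% and 1.49% of all genes. Rtp4 alone passed the adjusted threshold, beside 0.0683% of all genes as lower, falling to 3.99 and 3.77 after sulforaphane, against 5.09 and 5.18 after DMSO (-1.25 ± 0.12 SE, adjusted p = 0.0447 by limma). Ifit1, an RNA-binding effector, differed by -1.35, the mitochondrial kinase Cmpk2 by -1.07 and the antiviral enzyme Rsad2 by -1.24. Each of these differences was larger in size than that of any of the 9 sensor and kinase genes. The direction of this list was known from earlier results of these data and is no independent support for that of the sensors.

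**Figure D4:**
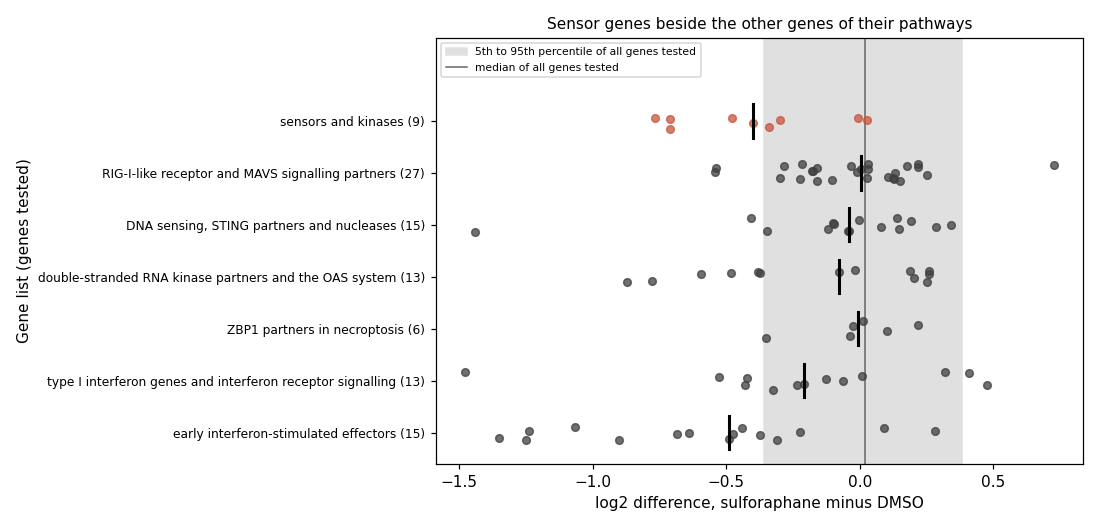
Differences (sulforaphane minus DMSO, log2 scale, horizontal axis) of the 9 sensor and kinase genes (red) and of the tested genes of 6 pathway lists (grey points), with list medians as black strokes. The grey band spans the 5th to the 95th percentile of all genes tested; early interferon-stimulated effectors have a median of -0.49 and the sensors and kinases one of -0.40.

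Markers of cell types are given for the same arrays. Over all genes tested, 6714 of 14652 had a negative difference, and 19.5% were lower and 24.0% higher without overlap. Macrophage and monocyte markers had 12 of 14 genes with a negative difference and 7 lower without overlap (median -0.12). The log2 of their summed signal was 13.63 to 13.67 on the sulforaphane arrays and 13.74 to 13.80 on the DMSO arrays. Of 12 dendritic cell markers 6 were lower and 3 higher without overlap (median -0.17), with summed signals of 13.64 to 13.68 after sulforaphane and 13.56 to 13.69 after DMSO. Irf4, a transcription factor of dendritic cells, differed by -0.87 and Batf3 by -0.64. From the same list, H2-Ab1 and H2-Aa were higher without overlap, at 0.26 and 0.16. Only 6 of the 12 dendritic cell markers had a negative difference. Of 8 mast cell and basophil markers, 4 were lower without overlap (median -0.07), with summed signals of 11.04 to 11.17 after sulforaphane and 11.20 to 11.21 after DMSO. Neutrophil markers overlapped in their sums (13.04 to 13.21 and 12.95 to 13.21; median 0.03). Markers of plasmacytoid dendritic cells, B cells and T and NK cells had 5, 3 and 3 tested genes with medians of 0.07, -0.27 and -0.13. Of these, Siglech (3.42 after sulforaphane and 3.62 after DMSO on average), Cd79a (3.38 and 3.80) and Cd3e averaged no more than 3.80 in either group. Others were brighter, among them Tcf4 (7.07 and 7.00) and Bst2 (7.55 and 7.46) of the plasmacytoid list and Cd79b (4.17 and 4.27) of the B cell list. The part of these markers in the values of the sensor genes was not tested.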

How the data were processed

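Expression was measured on 4 Affymetrix arrays, 2 per group, grouped by the sample titles. Per the submitters' processing notes, the deposited values were made with RMA in R 2.15.1. They were read as log2 from that method and their range, since the table does not name the base. RMA subtracts background, quantile-normalizes arrays and summarises probe sets. Of 41345 probe sets, 23521 had exactly 1 symbol in the platform annotation, 1814 had several and 16010 were not listed.

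Genes whose mean exceeded 2.91, the 40th percentile over probe sets, were fitted together with limma 3.58.1 (lmFit, eBayes) in R 4.3.3 without a block, with Benjamini-Hochberg adjustment over 14652 genes and a threshold of 0.05. The fit had 2 residual and 4.02 prior degrees of freedom, so the number of arrays limits the precision. Errors are moderated SE. The procedure was tested on simulated data, where it called 7.6% of 1.5-fold, 68% of 2-fold, 96% of 3-fold and 98.8% of 4-fold changes. Most changes of 1.5-fold were thus missed there.

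The set and the lists were chosen with earlier results of these data known. All genes of the set were named, and up to 4 genes with the smallest unadjusted p from each pathway list. Other genes, and all markers, were named after their values were seen. No pair of arrays held identical values. Deviations of arrays with the same replicate number correlated at -0.081, and with 2 pairs the numbers were not taken to pair the samples. Alternatives covered the filter, scaling, choice of probe set, replicate block, left-out arrays and variance moderation.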

Additional observations from a re-analysis of the deposited data

How the results depend on the processing

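The count of genes past the adjusted threshold, 19 by limma with all arrays, was 138 with a filter at the 60th percentile, 143 after median centring, 93 after a second quantile normalization, 34 when the probe sets of each gene were averaged and 249 with an intensity trend in eBayes. It was 0 with any of the 4 arrays left out (lowest 0, highest 0), when 1036 to 2850 genes had an unadjusted p below 0.05. The count of sensor and kinase genes past it was 3 instead of 0 with the 60th percentile filter, with median centring and with the intensity trend. These were Ddx58, Ifih1 and Ikbke each time, with adjusted p-values of 0.0371, 0.0371 and 0.0478 under that filter, 0.0357, 0.0358 and 0.0423 after centring, and 0.0125, 0.0097 and 0.0097 with the trend. Over all 13 alternatives their adjusted p ran from 0.0125 to 0.439, 0.0097 to 0.432 and 0.0097 to 0.484. Why the call depended on these settings was not tested. With the replicate block 8 genes passed, none of them a sensor or kinase gene. In that fit 5 sensor and kinase genes had an unadjusted limma p below 0.05, beside 1703 of all 14652 genes.

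Tbk1 turned to -0.037 after median centring, which shifted the median of all genes by -0.062, and to -0.058 without DMSO replicate 1, with 0.11 as its highest value without an array. Mavs turned to 0.032 without sulforaphane replicate 2 and 0.030 without DMSO replicate 2, with -0.047 as its lowest. The other 7 genes stayed below 0 in each of the 13 alternatives. The count of sensor and kinase genes lower without overlap, 7 of 9, was 7 to 9 with an array left out, when 30.8% to 36.3% of all genes were lower without overlap, and 7 under both scalings. These counts were added after seeing the data.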

Other observations

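PKR, encoded by Eif2ak2, is 1 of 4 kinases that phosphorylate eIF2α. The other kinases of that family were higher without overlap, an order that 24.0% of all genes showed, and their differences were small. Eif2ak1, the heme-regulated member, measured 9.14 and 9.02 on the sulforaphane arrays, against 8.79 and 8.87 on the DMSO arrays (difference 0.25). Eif2ak3, which responds to stress of the endoplasmic reticulum, differed by 0.26 and Eif2ak4, which responds to amino acid shortage, by 0.19. None of these passed the adjusted threshold by limma (adjusted p = 0.425, 0.427 and 0.566), and they were named after their values were seen.

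Within the OAS family, Oas1b (-0.48) and Oasl1 (-0.37) also had groups that did not overlap, so that the 6 lower genes of their list without overlap were all OAS genes. Cgas, which encodes the DNA sensor upstream of Sting1, differed by -0.35 without overlap (adjusted p = 0.474 by limma), while Aim2, the DNA sensor of an inflammasome, had overlapping groups at -0.05.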
